A study of Danio rerio with 11 samples.

Results

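Proteasome genes were defined as every gene whose zebrafish symbol begins with psma to psmg followed by a digit. The rule matched 59 of the 30243 gene identifiers in the deposited files. Of these, 57 encode proteasome subunits, activators, an inhibitor or assembly chaperones. The other 2, psmc3ip and psme3ip1, are named after proteasome proteins that they bind and are not subunits. RNA of whole zebrafish embryos was sequenced 48 hours after fertilisation, in 6 libraries from aldh3a1-/- embryos (aldh3a1_KO) and 5 libraries from wild-type embryos (WT). aldh3a1 encodes an enzyme that detoxifies aldehydes. Both genotypes carried TG(fli1:EGFP), a green fluorescent reporter of blood vessels, and were kept at 28.5 °C in E3 medium. PTU, which blocks melanin synthesis, was present or absent, and the labels do not say for which samples. The nature of the mutant allele, the number of lines and the number of embryos per library are not given in the sources used here, and every p-value rests on the spread among the 11 libraries, which may be technical.

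The proteasome is the barrel-shaped protease that degrades ubiquitin-tagged proteins in the cytosol and nucleus. Its core particle stacks rings of alpha subunits, which gate the entrance, on rings of beta subunits, of which beta1, beta2 and beta5 hold the active sites. A regulatory particle caps the core: the ATPases of its base unfold substrates, and its lid carries the enzyme that removes ubiquitin. In mammals and fish, immune cells exchange the active beta subunits for immunoproteasome forms, and in mammals the thymic cortex uses a further form of beta5. In mammalian cells the transcription factor Nfe2l1 raises most subunit genes together when proteasome activity falls short.

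Library totals were 9.22 to 17.2 M estimated counts in aldh3a1_KO and 18.1 to 19.97 M in WT (M, mega). Transcripts of the 13 mitochondrially encoded genes took 25.9, 7.44, 12.1, 5.01, 19.8 and 20.9% of counts in aldh3a1_KO 1 to 6 and 4.63 to 5.62% in WT. The aldh3a1 transcript itself had 4.83, 2.78, 5.08, 3.90, 4.05 and 1.95 CPM in the aldh3a1_KO libraries, against 5.65, 5.18, 4.39, 5.85 and 7.88 CPM in the WT libraries. The groups overlapped for it (log2 fold change -0.62 ± 0.27 (SE, edgeR adjusted p = 0.0621)), so the transcript was present in every library of both genotypes and its level does not check the labels. CPM are counts relative to the library total, scaled between libraries by TMM. TPM are the deposited values, which also allow for transcript length and serve here to compare genes with each other and to sum them. They were not scaled between libraries by TMM, which limits comparisons of genotypes on TPM. Library values of a gene are given in the order of the replicate numbers.

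Most proteasome genes had less transcript in aldh3a1_KO than in WT embryos, across the alpha ring, the beta ring, the ATPases and the lid. Of the 53 members that passed the filter on low counts, 33 fell, 4 rose and 16 did not pass the threshold of an adjusted p under 0.05. Those that fell make up 62.3% of the tested members, against 29.3% of all 22182 genes tested, and those that rose make up 7.55%, against 26.0% of all genes. The median log2 fold change was -0.70 over the tested members and -0.12 over all genes. Fold changes of the 33 members that fell ranged from 0.741 to 0.273 of the WT level, or -0.43 to -1.87 on the log2 scale. The 4 that rose were the beta5t gene psmb11b, the alpha-type gene psma6l, the base subunit gene psmd1 and the activator gene psme2. In 16 tested members, or 30.2%, every aldh3a1_KO library lay below every WT library, against 20.0% of all genes. The opposite separation was seen in 2, psma6l and psmb11b, or 3.77%, against 17.8% of all genes. These are whole embryos, in which fewer cells of a type and less RNA per cell cannot be told apart. With aldh3a1_KO 1, 5 and 6 left out, the libraries with the highest mitochondrial share, 22 members fell and 2 rose, against 26.1% of all genes lower and 24.0% higher, and the median over the members was -0.39. On log2(TPM + 1), where the median of all genes was -0.26, 36 members fell and 2 rose (limma), against 36.0% of all genes lower and 19.8% higher. With the median of all genes set to 0, 29 fell and 4 rose, against 24.8% lower and 29.1% higher. Of the 33 members that fell, 23 also passed in each of the 11 fits that leave out 1 library.

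**Figure D1:**
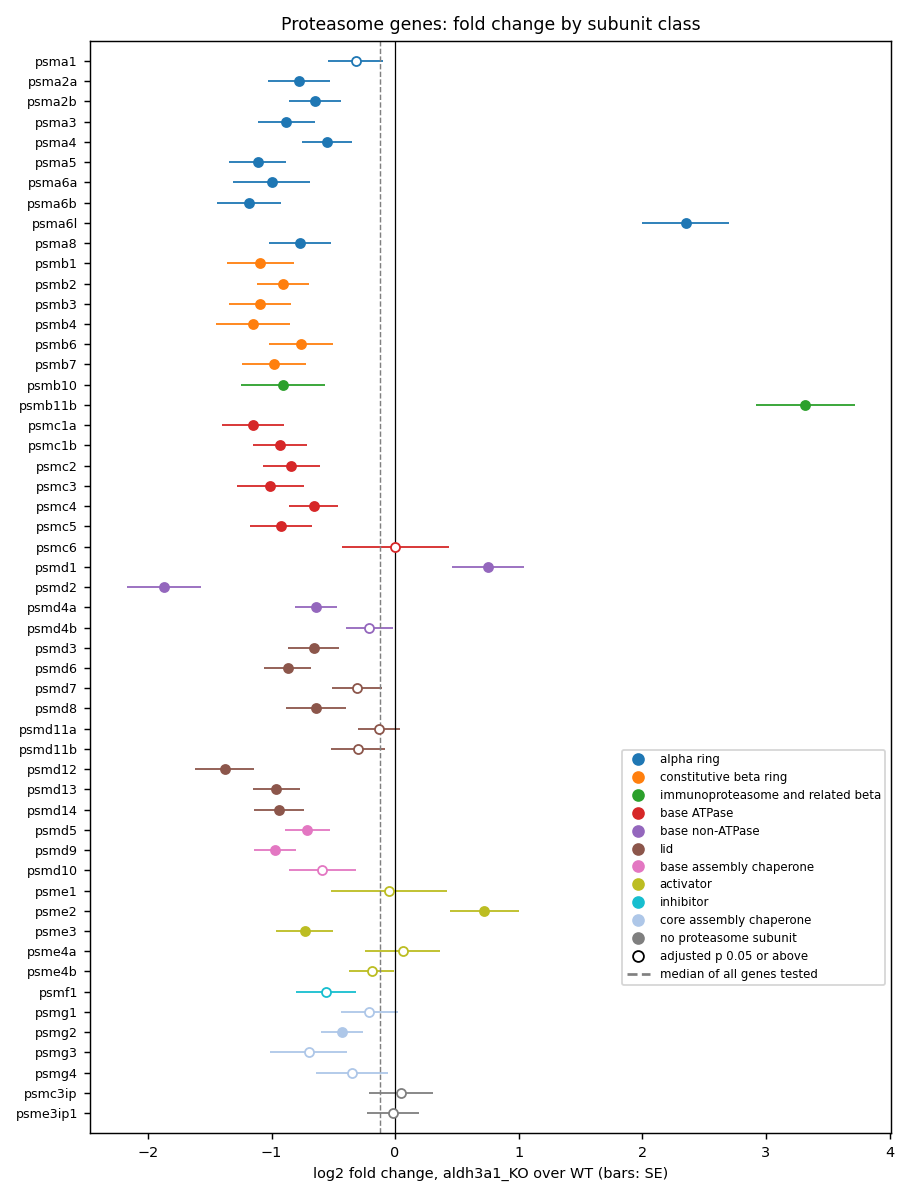
Log2 fold change of aldh3a1_KO over WT (x axis) for the 53 tested members (y axis), grouped by subunit class in colour, with bars for the SE. Filled points passed an adjusted p under 0.05 and open points did not; the dashed line marks the median of all genes at -0.12. Points of the alpha ring, beta ring and ATPases lie mostly between -0.5 and -1.2, while psmb11b at 3.32 and psma6l at 2.35 stand to the right.

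Summed over the genes of a class, transcript levels of the alpha ring, the constitutive beta ring, the ATPases and the lid were lower in aldh3a1_KO, on TPM and on CPM. The alpha ring summed to 383, 1291, 861, 1192, 477 and 614 TPM in the aldh3a1_KO libraries, against 1483, 1585, 1381, 1494 and 1590.0 TPM in the WT libraries. For the constitutive beta ring the sums were 338, 1337, 783, 1206, 438 and 559 TPM in aldh3a1_KO, against 1717, 1858, 1547, 1805 and 1803 TPM in WT. On TPM both rings had no overlap between genotypes, with aldh3a1_KO means at 0.533 and 0.445 of the WT means. The ATPases summed to 297 ± 140.0 TPM in aldh3a1_KO and 617 ± 63.7 TPM in WT, and the lid to 576 ± 240.0 TPM in aldh3a1_KO and 1070.0 ± 47.3 TPM in WT (SD, n = 6 and 5). Neither overlapped between genotypes on TPM. On TMM-scaled CPM the aldh3a1_KO means were 0.599 of the WT means for the alpha ring, 0.495 for the constitutive beta ring, 0.542 for the ATPases and 0.639 for the lid. There the groups overlapped for both rings and the lid, where aldh3a1_KO 2 lay above WT 3, and not for the ATPases. The non-ATPase base subunits overlapped on both scales and turned direction between them, at 243 ± 67.6 TPM in aldh3a1_KO and 317 ± 28.9 TPM in WT, a ratio of 0.765, but 601 ± 231 CPM in aldh3a1_KO and 539.5 ± 35.6 CPM in WT, a ratio of 1.11 (SD, n = 6 and 5). All 57 proteasome genes together summed to 2896 ± 1260.0 TPM in aldh3a1_KO and 5555 ± 307 TPM in WT (SD, n = 6 and 5), a ratio of 0.521. On CPM that ratio was 0.645, and aldh3a1_KO 2, at 4884 CPM, lay above the lowest WT library, WT 3, at 4654 CPM.

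**Figure D2:**
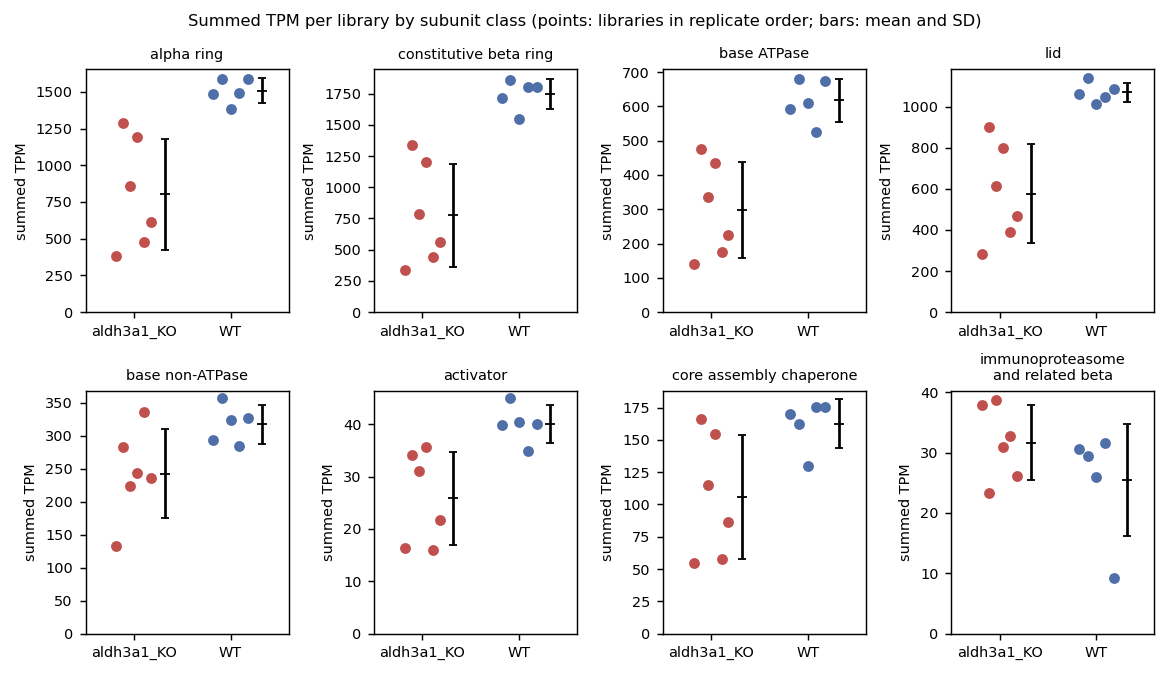
Summed TPM (y axis, from 0) of the genes of 8 subunit classes in each of the 6 aldh3a1_KO and 5 WT libraries, with mean and SD as bars. The alpha ring, the constitutive beta ring, the ATPases and the lid separate by genotype, and aldh3a1_KO 2 and 4 stand highest among the aldh3a1_KO libraries in each of these 4. On TMM-scaled CPM, not shown here, the genotypes overlap for both rings and the lid.

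The alpha ring forms the outer rings of the core particle and gates access to its chamber. All 10 alpha-type genes were tested: 8 fell, 1 rose and 1 did not pass the threshold, with a median log2 fold change of -0.78. Of all genes tested, 29.3% fell and 26.0% rose, with a median of -0.12. The most abundant alpha-type gene, psma3, which encodes alpha7 (Entrez gene 564370), had 65.7, 152, 104, 139, 62.2 and 88.0 CPM in the aldh3a1_KO libraries, against 192, 197, 169.9, 185 and 196 CPM in the WT libraries. No aldh3a1_KO library reached the WT range of psma3 (log2 fold change -0.88 ± 0.23 (SE, edgeR adjusted p = 0.00491)). The largest decrease was in psma6b, one of the genes for alpha1, which had 9.05, 31.8, 22.2, 23.6, 12.9 and 19.9 CPM in the aldh3a1_KO libraries, against 47.2, 46.0, 42.8, 42.7 and 47.6 CPM in the WT libraries. Its groups did not overlap (log2 fold change -1.18 ± 0.26 (SE, edgeR adjusted p = 0.0015)). The gene for alpha5, psma5, fell by 1.11 on the log2 scale (SE 0.23, edgeR adjusted p = 0.0011), also without overlap. The second and more abundant alpha1 gene, psma6a, had 29.1, 104, 47.2, 67.4, 22.9 and 54.6 CPM in the aldh3a1_KO libraries, against 114, 107, 86.6, 124 and 114 CPM in the WT libraries. aldh3a1_KO 2 lay within its WT range and the other 5 libraries below it (log2 fold change -1.0 ± 0.31 (SE, edgeR adjusted p = 0.0145)), and the call was lost without aldh3a1_KO 1, 5 and 6 together. The alpha2 gene psma2a had 24.6, 76.0, 40.9, 56.4, 26.2 and 41.9 CPM in the aldh3a1_KO libraries, against 83.0, 74.9, 69.7, 75.6 and 77.8 CPM in the WT libraries. Its copy psma2b had 35.5, 89.9, 51.1, 64.1, 42.6 and 58.1 CPM in the aldh3a1_KO libraries, against 90.01, 90.05, 80.1, 86.7 and 98.6 CPM in the WT libraries. In both, aldh3a1_KO 2 alone reached the WT range. The genes psma2a, psma2b, psma4, psma6a and psma8 had log2 fold changes of -0.55 to -1.0 and groups that overlapped. psma2a and psma2b lost the call without aldh3a1_KO 1, 5 or 6, psma8 without aldh3a1_KO 1, and psma4 when any 1 of 8 libraries was left out. For alpha4 the files list psma8, for which the gene table gives psma7 as an older name, and no separate psma7 row.

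The alpha6 gene psma1 did not pass the threshold (log2 fold change -0.32 ± 0.22 (SE, edgeR adjusted p = 0.223)). It had 71.4, 172, 114, 136, 84.7 and 121 CPM in the aldh3a1_KO libraries, against 147, 144, 109, 175 and 155.5 CPM in the WT libraries, and aldh3a1_KO 2 lay above 4 of the 5 WT libraries. The gene psma6l, named as alpha1-like, went the other way, with 3.69, 2.37, 2.66, 2.60, 3.57 and 7.35 CPM in the aldh3a1_KO libraries, against 0.9, 0.677, 0.641, 0.555 and 0.812 CPM in the WT libraries. Every aldh3a1_KO library exceeded every WT library for it (log2 fold change 2.35 ± 0.35 (SE, edgeR adjusted p = 0.000114)). It is a scarce transcript with 264 estimated counts over the aldh3a1_KO libraries and 73 over WT, and it made up little of the alpha1 level, at 2.78 ± 0.929 TPM in aldh3a1_KO and 0.659 ± 0.112 TPM in WT (SD, n = 6 and 5).

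Of the beta ring, the 6 tested constitutive genes all fell, against 29.3% of all genes, with log2 fold changes of -0.76 to -1.15. These were psmb1 (beta6), psmb2 (beta4), psmb3 (beta3), psmb4 (beta7), psmb6 (beta1) and psmb7 (beta2). psmb4, the most abundant proteasome gene in WT by TPM, had 49.4, 192, 100.1, 141, 59.9 and 119 CPM in the aldh3a1_KO libraries, against 257, 239, 186, 273 and 265 CPM in the WT libraries. Only aldh3a1_KO 2, at 192 CPM, reached above the lowest WT library (log2 fold change -1.15 ± 0.30 (SE, edgeR adjusted p = 0.00485)). The smallest decrease was in psmb6, which encodes the beta1 protease that cleaves after acidic residues, with 40.9, 127, 66.6, 92.0, 50.6 and 71.9 CPM in the aldh3a1_KO libraries, against 129.5, 129, 95.1, 158 and 124 CPM in the WT libraries. aldh3a1_KO 2 lay within the WT range of psmb6 and the other 5 libraries below it (log2 fold change -0.76 ± 0.26 (SE, edgeR adjusted p = 0.0211)), and the call was lost without aldh3a1_KO 1, 5 or 6 or WT 4. The gene for beta2, which cleaves after basic residues, psmb7, had 71.5, 209, 112, 155, 66.7 and 101 CPM in the aldh3a1_KO libraries, against 236, 248, 209, 241 and 244 CPM in the WT libraries. Its groups touched only at aldh3a1_KO 2 and WT 3 (log2 fold change -0.98 ± 0.26 (SE, edgeR adjusted p = 0.00595)). psmb1, psmb2 and psmb3 had no overlap and log2 fold changes of -1.09, -0.91 and -1.09 (SE 0.27, 0.21 and 0.25, edgeR adjusted p = 0.00338, 0.00237 and 0.00239).

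The beta5 gene psmb5, which encodes the chymotrypsin-like protease of every standard proteasome, was listed near 0 in all 11 libraries. It had 0, 0.0592, 0.161, 0.195, 0 and 0 CPM in the aldh3a1_KO libraries, against 0.3, 0.0484, 0.247, 0.252 and 0.239 CPM in the WT libraries, from 6 and 22 estimated counts over the genotypes. Its WT level of 0.207 ± 0.0845 TPM (SD, n = 5) compares with 230.1 to 353 TPM for the other 6 constitutive beta genes. Whether its reads were assigned elsewhere in the authors' quantification was not tested. It did not pass the filter on low counts and has no test.

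The immunoproteasome and related beta genes were mostly at the edge of detection in these embryos. Of 7 such genes, 2 were tested, psmb10 and psmb11b, and they moved in opposite directions. psmb8a (beta5i) and psmb13a (a fish beta2-like gene) had 0 counts over the aldh3a1_KO libraries and 5 and 6 counts over WT. A count of 0 allows a level of up to 0.0385 CPM over the aldh3a1_KO libraries, a floor of 3 counts that covers counting error only. psmb9a (beta1i) had 0, 0.474, 0.0807, 0.39, 0.238 and 0 CPM in the aldh3a1_KO libraries, against 0.3, 0.677, 0.493, 0.202 and 0.239 CPM in the WT libraries. psmb12, a fish beta1-like gene, had 17 counts over aldh3a1_KO and 29 over WT, and psmb11a had none in any library. In the RefSeq gene table, psmb8a, psmb9a, psmb12 and psmb13a lie next to each other and to the peptide transporter gene tap2a. The spans of psmb8a and psmb13a overlap each other and those of psmb9a and psmb12, and psmb13a also overlaps tap2a. No overlap is listed between psmb9a and psmb12.

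The immunoproteasome beta2i gene psmb10 had 9.05, 13.9, 7.91, 9.44, 4.41 and 9.68 CPM in the aldh3a1_KO libraries, against 22.6, 19.6, 16.3, 22.1 and 5.40 CPM in the WT libraries. aldh3a1_KO averaged lower (log2 fold change -0.91 ± 0.34 (SE, edgeR adjusted p = 0.0321)), but WT 5, at 5.40 CPM, stood far below the other WT libraries and under 5 of the 6 aldh3a1_KO libraries. Without WT 5 the log2 fold change was -1.15. Leaving out any of aldh3a1_KO 1, 3, 5 or 6 or WT 1, 2 or 4 took the adjusted p above 0.05. Leukocytes are a known source of immunoproteasome transcripts, and of 13 tested leukocyte markers 8 fell, or 61.5% against 29.3% of all genes, and 2 rose, or 15.4% against 26.0%. Their summed level was 17.4 to 27.1 TPM in aldh3a1_KO and 52.8 to 85.6 TPM in WT, with cxcr3.2 near 0 in both, and its part in the psmb10 result was not tested.

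The thymoproteasome gene psmb11b, a form of beta5 known in mammals from thymic cortical epithelium, rose more than any other member. It had 55.0, 9.24, 36.2, 19.98, 44.1 and 33.1 CPM in the aldh3a1_KO libraries, against 3.15, 2.52, 3.16, 4.99 and 2.63 CPM in the WT libraries. The lowest aldh3a1_KO library, aldh3a1_KO 2, was above the highest WT library, and the mean was 9.98-fold higher (log2 fold change 3.32 ± 0.40 (SE, edgeR adjusted p = 2.94e-05)). Its mean level was 21.1 ± 9.06 TPM in aldh3a1_KO and 2.54 ± 0.708 TPM in WT (SD, n = 6 and 5), which was above psmb10 in aldh3a1_KO, at 10.01 ± 4.08 TPM, and below it in WT, at 21.8 ± 8.72 TPM. In aldh3a1_KO 2 psmb11b was below psmb10, at 6.60 TPM against 16.2 TPM. The order of the aldh3a1_KO libraries for psmb11b was nearly the reverse of that for the constitutive subunits, with aldh3a1_KO 1 and 5 highest and aldh3a1_KO 2 and 4 lowest. Of 6 tested thymus and T cell markers 3 rose, foxn1, rag2 and cd8a, against 26.0% of all genes, and none fell. foxn1, the transcription factor of thymic epithelium, averaged 5.24 ± 2.57 CPM in aldh3a1_KO and 1.29 ± 0.638 CPM in WT (SD, n = 6 and 5), and cd4-1 was at 0 in both. The summed level of the list, most of it tox, was 44.8 to 134.6 TPM in aldh3a1_KO and 71.6 to 94.3 TPM in WT, and the part of these cells in the psmb11b result was not tested. A list of germ cell markers gave the same counts, with 3 of 6 tested genes higher and none lower. A share of this size was therefore not particular to the thymus and T cell list. The germ cell markers summed to 3.80 to 10.3 TPM in aldh3a1_KO and 1.74 to 4.54 TPM in WT, with overlap. On CPM they summed to 7.52 to 25.6 in aldh3a1_KO and 2.72 to 7.40 in WT, without overlap. Without aldh3a1_KO 1, 5 and 6 the log2 fold change of psmb11b was 2.78.

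**Figure D3:**
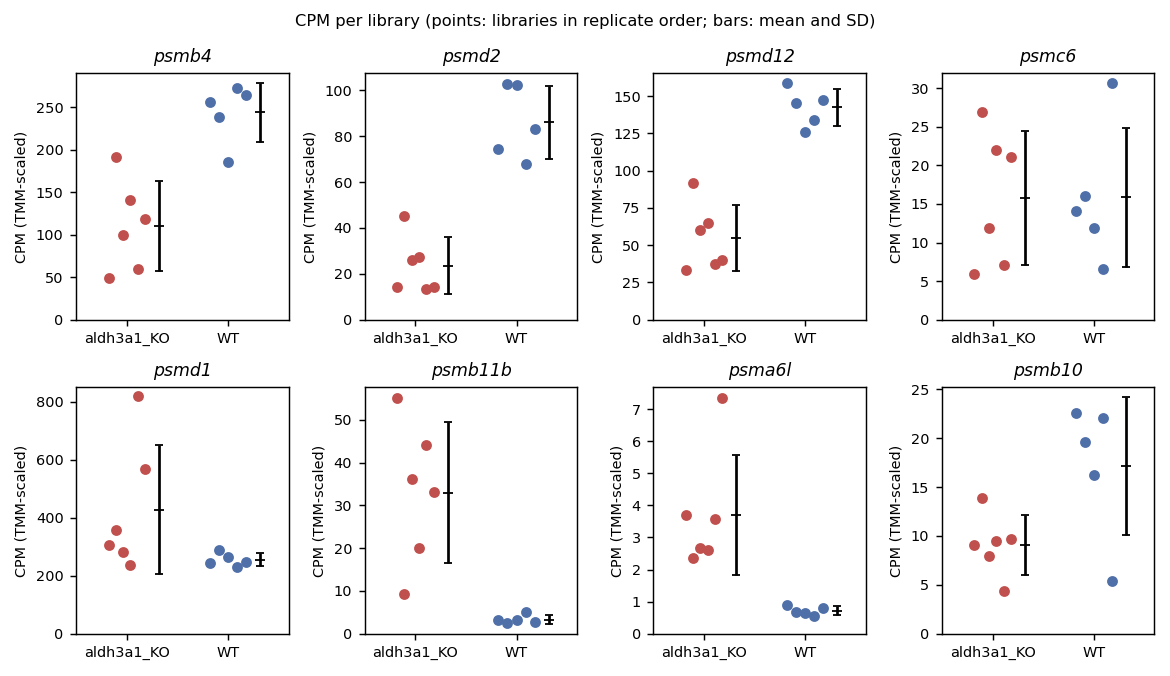
CPM (y axis, from 0) of 8 members in the 6 aldh3a1_KO and 5 WT libraries, with mean and SD as bars. psmd2 and psmd12 are lower in every aldh3a1_KO library than in any WT library, psmb11b and psma6l higher in every one, and psmc6, psmd1, psmb4 and psmb10 overlap.

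The base of the regulatory particle holds a ring of ATPases, Rpt1 to Rpt6, encoded by psmc genes. Among the 7 tested ATPase genes 6 fell, or 85.7% against 29.3% of all genes, and none rose, against 26.0%. The remaining 1 did not pass, and the median log2 fold change was -0.92. psmc5 (Rpt6), the most abundant, had 60.2, 158, 93.1, 116, 50.2 and 111 CPM in the aldh3a1_KO libraries, against 187, 192, 168, 179 and 204 CPM in the WT libraries. No aldh3a1_KO library entered the WT range (log2 fold change -0.92 ± 0.25 (SE, edgeR adjusted p = 0.00646)), and the same held for psmc2 (Rpt1) and psmc3 (Rpt5), with log2 fold changes of -0.84 and -1.01. psmc4 (Rpt3) fell by 0.66 with overlapping groups. Rpt2 is encoded by a pair of genes. psmc1a, which fell most among the ATPases, had 28.8, 46.4, 56.5, 47.9, 36.6 and 31.7 CPM in the aldh3a1_KO libraries, against 94.1, 107, 86.9, 45.5 and 124 CPM in the WT libraries. WT 4, at 45.5 CPM, lay among the aldh3a1_KO libraries and the other WT libraries above them (log2 fold change -1.15 ± 0.25 (SE, edgeR adjusted p = 0.0014)). Its copy psmc1b had 28.0, 69.5, 41.4, 54.7, 29.6 and 41.1 CPM in the aldh3a1_KO libraries, against 87.9, 82.7, 69.5, 82.8 and 98.4 CPM in the WT libraries. Only aldh3a1_KO 2 and WT 3 met there (log2 fold change -0.93 ± 0.22 (SE, edgeR adjusted p = 0.003)).

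The Rpt4 gene psmc6 differed from the other ATPases in level and in spread. It had 5.98, 26.9, 11.9, 22.0, 7.15 and 21.0 CPM in the aldh3a1_KO libraries, against 14.1, 16.1, 11.8, 6.51 and 30.7 CPM in the WT libraries, and the ranges of the genotypes nearly coincide (log2 fold change 0.00 ± 0.43 (SE, edgeR adjusted p = 0.996)). Its WT level of 12.1 ± 6.83 TPM (SD, n = 5) compares with 88.5 ± 2.76 TPM for psmc4, the next ATPase position by level. The sign of its fold change turned with the scale and with single libraries.

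Besides the ATPases, the base contains the large scaffold subunits Rpn2 (psmd1) and Rpn1 (psmd2) and the ubiquitin receptor Rpn10 (psmd4a and psmd4b). The scaffold genes moved apart. psmd2 showed the largest decrease of any member, with 14.2, 45.3, 25.9, 27.5, 13.3 and 14.2 CPM in the aldh3a1_KO libraries, against 74.5, 103, 102, 68.0 and 83.3 CPM in the WT libraries. Every aldh3a1_KO library lay below every WT library, at a mean of 0.273 of the WT level (log2 fold change -1.87 ± 0.30 (SE, edgeR adjusted p = 0.000182)). psmd1 had 305, 357, 281, 237, 819 and 568.3 CPM in the aldh3a1_KO libraries, against 242, 289, 264, 231 and 247 CPM in the WT libraries. Its mean was higher in aldh3a1_KO (log2 fold change 0.75 ± 0.29 (SE, edgeR adjusted p = 0.0408)), with aldh3a1_KO 5 and 6 far above the rest and aldh3a1_KO 3 and 4 within the WT range. On log2(TPM + 1) the difference was 0.38 (limma adjusted p = 0.249), without aldh3a1_KO 1, 5 and 6 it was 0.24 (adjusted p = 0.202), and its adjusted p varied between 0.0132 and 0.249 with the alternatives. Without aldh3a1_KO 6 or any 1 of the WT libraries the call was also lost. In the RefSeq gene table the span of psmd1 overlaps htr2b, acap2b and ppp1r2. Reads may not be separable where overlapping genes share transcript sequence, and whether these do was not examined. The same limit holds for members that fell, among them psmd2, which overlaps alp3, psmb1, which overlaps nrxn1b, and psmd6, which overlaps slc2a9l1. psmd4a had 45.1, 77.2, 59.8, 62.6, 62.8 and 77.3 CPM in the aldh3a1_KO libraries, against 109.9, 98.1, 76.1, 111 and 104 CPM in the WT libraries. It fell (log2 fold change -0.64 ± 0.17 (SE, edgeR adjusted p = 0.00577)), with WT 3 inside the aldh3a1_KO range. psmd4b had 52.3, 111, 72.6, 89.6, 91.0 and 97.3 CPM in the aldh3a1_KO libraries, against 97.5, 104, 88.0, 88.4 and 116 CPM in the WT libraries, with 4 aldh3a1_KO libraries within the WT range and aldh3a1_KO 1 and 3 below it (log2 fold change -0.21 ± 0.19 (SE, edgeR adjusted p = 0.359)).

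The lid holds the deubiquitinase Rpn11 and a horseshoe of scaffold subunits. Of 9 tested lid genes 6 fell, or 66.7% against 29.3% of all genes, and none rose, against 26.0%. The other 3 did not pass, and the median log2 fold change was -0.66. psmd12 (Rpn5) fell most, with 33.6, 92.1, 59.9, 64.6, 37.4 and 40.1 CPM in the aldh3a1_KO libraries, against 159, 146, 126, 134 and 147 CPM in the WT libraries. Its groups were far apart, with the highest aldh3a1_KO library at 92.1 CPM and the lowest WT library at 126 CPM (log2 fold change -1.38 ± 0.24 (SE, edgeR adjusted p = 0.000321)). psmd14, the gene of the deubiquitinase, fell by 0.94 (SE 0.20, edgeR adjusted p = 0.00114), psmd13 (Rpn9) by 0.96 and psmd6 (Rpn7) by 0.87, all without overlap. psmd3 (Rpn3) fell by 0.66, with overlap and a call lost without aldh3a1_KO 1, 5 or 6. psmd8 (Rpn12), the most abundant lid gene, had 91.6, 258, 153, 193, 104 and 177 CPM in the aldh3a1_KO libraries, against 272, 240.2, 197, 289 and 276 CPM in the WT libraries. aldh3a1_KO 2 lay within the WT range (log2 fold change -0.64 ± 0.24 (SE, edgeR adjusted p = 0.0371)), and the call was lost when any 1 of 8 libraries was left out. psmd7 (Rpn8), the partner of Rpn11, had a log2 fold change of -0.31 ± 0.20 (SE, edgeR adjusted p = 0.211). The Rpn6 genes, which hold the lid against the core, changed least. psmd11a had 82.3, 146, 107, 126, 80.8 and 113 CPM in the aldh3a1_KO libraries, against 124, 129, 105, 118 and 124 CPM in the WT libraries (log2 fold change -0.13 ± 0.17 (SE, edgeR adjusted p = 0.534)). psmd11b had 48.9, 124, 76.6, 98.4, 50.3 and 86.9 CPM in the aldh3a1_KO libraries, against 102, 99.1, 99.6, 97.3 and 101 CPM in the WT libraries (log2 fold change -0.30 ± 0.22 (SE, edgeR adjusted p = 0.262)). For both, aldh3a1_KO 2 was above every WT library and aldh3a1_KO 1 and 5 were below every one.

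In each assembled ring every position is filled by 1 subunit, so levels were also summed over the genes for a position. In WT the 7 alpha positions ranged from 139.5 TPM for alpha5 to 277 TPM for alpha2, and the tested beta positions from 230.1 TPM for beta3 to 353 TPM for beta7. In aldh3a1_KO these ranges were 56.8 TPM for alpha5 to 149.7 TPM for alpha2, and 95.9 TPM for beta3 to 148 TPM for beta1. The ATPase positions other than Rpt4 had 49.4 to 77.1 TPM in aldh3a1_KO and 88.5 to 165 TPM in WT. Among the lid and the non-ATPase base subunits the ends of the range were Rpn1, at 16.3 ± 10.1 TPM in aldh3a1_KO and 66.5 ± 15.7 TPM in WT, and Rpn12, at 119 ± 56.3 TPM in aldh3a1_KO and 208 ± 21.5 TPM in WT (SD, n = 6 and 5). Many neighbours in this order do not differ beyond their spread, for example psmb7 and psmb6 at 289.5 ± 18 and 285 ± 39.4 TPM in WT. Of the positions of the alpha ring, the constitutive beta ring, the base and the lid, Rpn2 alone had a higher mean TPM in aldh3a1_KO, at 118 ± 55.5 TPM there and 84.3 ± 11.4 TPM in WT (SD, n = 6 and 5).

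**Figure D4:**
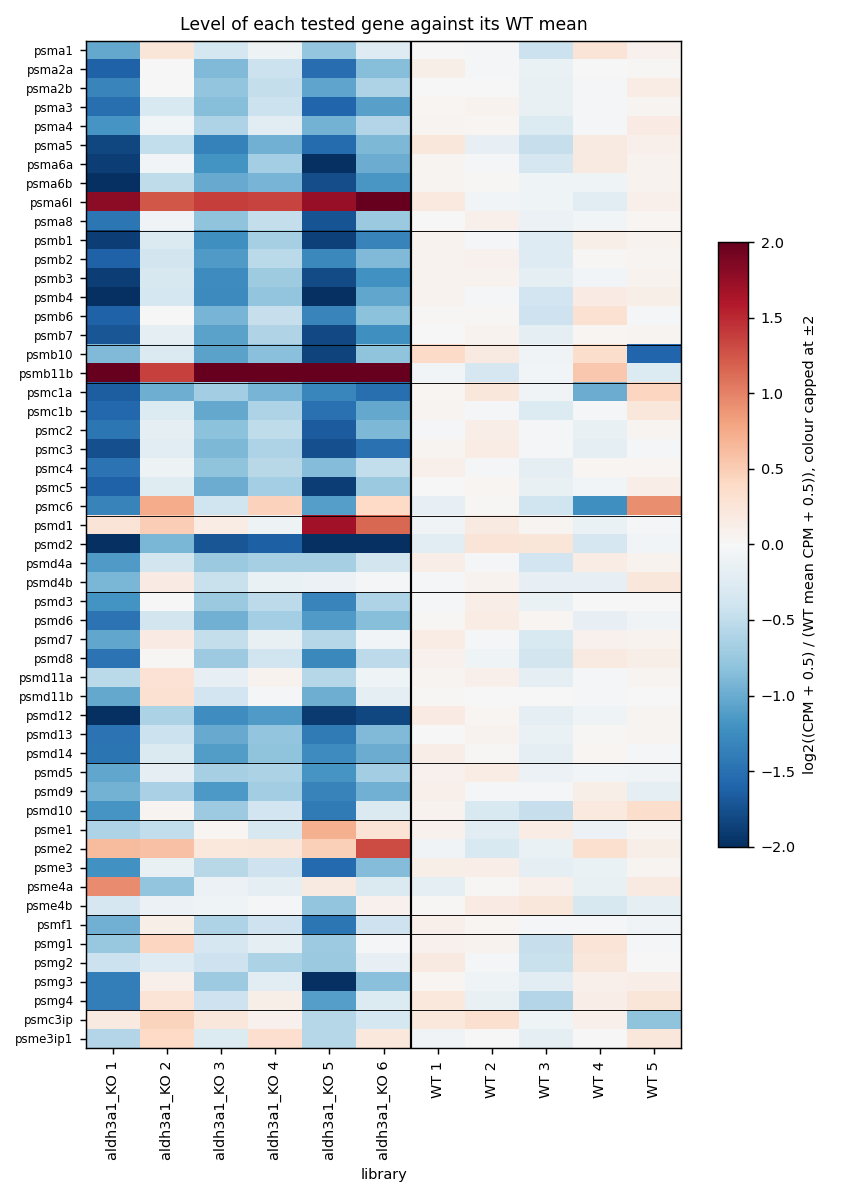
Level of each tested member (rows, by class) in each library (columns) as log2 of (CPM + 0.5) over the WT mean + 0.5, with colours capped at 2 in either direction. Most rows are bluest in aldh3a1_KO 1 and 5 and palest in aldh3a1_KO 2, and psma6l and psmb11b are red in all 6 aldh3a1_KO libraries.

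The aldh3a1_KO libraries differed among themselves in much the same order over most members, and a similar order held over all genes tested. There the mean correlation with the WT libraries was 0.748, 0.877, 0.814, 0.847, 0.720 and 0.777 in aldh3a1_KO 1 to 6. Over the 33 members that fell, the median log2 level against the WT mean was -1.52, -0.28, -0.97, -0.65, -1.54 and -0.89 in aldh3a1_KO 1 to 6. aldh3a1_KO 2 was the highest of the 6 for 30 of the 33 members, and the lowest was aldh3a1_KO 1 for 19 and aldh3a1_KO 5 for 14. aldh3a1_KO 5 was below every WT library for all 33, and aldh3a1_KO 2 for 16. The 33 were called lower from these same libraries, so these counts describe the libraries and do not test the decrease. The 2 libraries nearest to WT, aldh3a1_KO 2 and 4, had mitochondrial shares of 7.44 and 5.01%, and the 2 farthest, aldh3a1_KO 1 and 5, had 25.9 and 19.8%. The other libraries did not keep this order. aldh3a1_KO 6 had a share of 20.9% and a median level of -0.89, while aldh3a1_KO 3 had 12.1% and -0.97. The part of the mitochondrial share in these levels was not tested. Without aldh3a1_KO 1, 5 and 6, the counts that fell were 3 of 10 in the alpha ring, 5 of 6 in the constitutive beta ring, 6 of 7 among the ATPases and 4 of 9 in the lid, against 26.1% of all genes, so the share in the alpha ring was near that of all genes.

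Activators bind the core in place of the regulatory particle, and the 5 tested genes showed no common direction, with a median of -0.05. Among them 1 was higher, or 20.0% against 26.0% of all genes, and 1 lower, or 20.0% against 29.3%. The nuclear activator PA28gamma, encoded by psme3, had 16.3, 34.4, 25.9, 28.5, 12.8 and 20.8 CPM in the aldh3a1_KO libraries, against 41.5, 42.1, 33.4, 34.9 and 39.7 CPM in the WT libraries. It fell (log2 fold change -0.73 ± 0.23 (SE, edgeR adjusted p = 0.0145)), with overlap at aldh3a1_KO 2, and lost the call without aldh3a1_KO 1 or 6. PA28beta, encoded by psme2, is induced by interferon in mammals and had 4.04, 3.91, 2.90, 2.93, 3.57 and 6.79 CPM in the aldh3a1_KO libraries, against 2.30, 1.89, 2.17, 3.18 and 2.67 CPM in the WT libraries. It rose (log2 fold change 0.72 ± 0.28 (SE, edgeR adjusted p = 0.0397)), with aldh3a1_KO 6 highest and overlapping groups. The call for psme2 was lost without aldh3a1_KO 6 or any of WT 1, 2, 3 and 5, and on log2(TPM + 1), where the difference was 0.32 (limma adjusted p = 0.12). In the gene table psme2 overlaps lsm5, and psme3 overlaps skap1. Its partner psme1 (PA28alpha) was scarce, with 36 and 54 estimated counts over the genotypes and 0.176, 0.237, 0.565, 0.325, 1.19 and 0.745 CPM in the aldh3a1_KO libraries, against 0.6, 0.387, 0.641, 0.454 and 0.573 CPM in the WT libraries. The means were close (log2 fold change -0.05 ± 0.47 (SE, edgeR adjusted p = 0.941)), with 3 aldh3a1_KO libraries below and 2 above every WT library. PA200 is a large nuclear activator with a pair of genes. psme4a had 9.67, 2.55, 4.36, 4.16, 5.48 and 3.82 CPM in the aldh3a1_KO libraries, against 4.1, 4.89, 5.18, 4.29 and 5.49 CPM in the WT libraries (log2 fold change 0.06 ± 0.30 (SE, edgeR adjusted p = 0.882)). psme4b had 45.4, 52.8, 53.7, 56.4, 32.9 and 60.5 CPM in the aldh3a1_KO libraries, against 58.4, 64.5, 67.0, 45.6 and 50.6 CPM in the WT libraries (log2 fold change -0.19 ± 0.18 (SE, edgeR adjusted p = 0.388)). Neither separated the genotypes. The inhibitor PI31, encoded by psmf1, had 6.68, 14.7, 8.63, 10.02, 4.65 and 10.1 CPM in the aldh3a1_KO libraries, against 14.5, 13.8, 13.1, 13.3 and 12.8 CPM in the WT libraries. Its lower mean did not pass the threshold (log2 fold change -0.56 ± 0.24 (SE, edgeR adjusted p = 0.0621)), with aldh3a1_KO 2 above every WT library and the other 5 below.

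Chaperones assemble the particle and are absent from the finished enzyme. The 3 base assembly chaperones were lower, 2 of them past the threshold, or 66.7% against 29.3% of all genes. psmd9 (p27) had 8.26, 10.3, 7.18, 10.02, 6.20 and 8.19 CPM in the aldh3a1_KO libraries, against 17.6, 16.1, 16.2, 17.8 and 14.5 CPM in the WT libraries. All aldh3a1_KO values lay below all WT values (log2 fold change -0.97 ± 0.17 (SE, edgeR adjusted p = 0.000359)), and psmd5 (S5b) likewise fell by 0.71 without overlap (SE 0.18, edgeR adjusted p = 0.00492). psmd10 (gankyrin) had 5.36, 13.4, 7.58, 9.76, 4.53 and 10.4 CPM in the aldh3a1_KO libraries, against 13.4, 10.3, 9.17, 14.7 and 16.5 CPM in the WT libraries. Its groups overlapped (log2 fold change -0.59 ± 0.27 (SE, edgeR adjusted p = 0.0824)). Of the 4 core assembly chaperones, psmg1 to psmg4 (PAC1 to PAC4), only psmg2 passed the threshold, at -0.43 ± 0.17 (SE, edgeR adjusted p = 0.0437). That call was lost when any library other than WT 3 was left out, and 1 of 4 lower, or 25.0%, is near the 29.3% of all genes. psmg4, the most abundant, had 7.47, 24.6, 15.0, 22.0, 9.17 and 16.8 CPM in the aldh3a1_KO libraries, against 23.4, 18.2, 13.3, 22.3 and 24.0 CPM in the WT libraries. aldh3a1_KO 2 was above every WT library (log2 fold change -0.35 ± 0.29 (SE, edgeR adjusted p = 0.319)). psmg3 had 9.14, 26.7, 14.8, 21.0, 5.60 and 13.7 CPM in the aldh3a1_KO libraries, against 25.4, 23.4, 21.0, 26.7 and 27.3 CPM in the WT libraries (log2 fold change -0.70 ± 0.31 (SE, edgeR adjusted p = 0.0666)). psmg1 had 15.4, 35.7, 20.6, 22.8, 15.6 and 25.6 CPM in the aldh3a1_KO libraries, against 27.9, 27.6, 18.9, 31.6 and 25.5 CPM in the WT libraries (log2 fold change -0.21 ± 0.23 (SE, edgeR adjusted p = 0.439)). In both, aldh3a1_KO 1 and 5 were the lowest of all libraries. The binding partners, which are no subunits, showed overlapping groups. psmc3ip, a recombination factor, had 6.77, 8.23, 7.02, 6.31, 3.81 and 4.56 CPM in the aldh3a1_KO libraries, against 6.95, 7.55, 5.57, 6.41 and 3.201 CPM in the WT libraries (log2 fold change 0.05 ± 0.26 (SE, edgeR adjusted p = 0.883)). psme3ip1, which binds PA28gamma, had 24.9, 50.2, 31.2, 47.6, 25.4 and 44.0 CPM in the aldh3a1_KO libraries, against 36.0, 38.0, 32.8, 37.7 and 44.4 CPM in the WT libraries (log2 fold change -0.02 ± 0.21 (SE, edgeR adjusted p = 0.943)).

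Several subunits have duplicated genes in zebrafish, and the balance of the copies was compared as the log2 ratio of their TPM + 0.5 in each library. Over 9 pairs, 6 of duplicates, 2 of an immunoproteasome gene with its constitutive counterpart and psme1 with psme2, two-sided exact permutation tests over the libraries were run and their p-values adjusted together. Only the copies of Rpn10 passed the threshold, in the test over all 11 libraries. psmd4a made up 49.4, 44.1, 48.2, 44.1, 43.8 and 47.3% of the pair in the aldh3a1_KO libraries, against 56.1, 51.6, 49.5, 58.6 and 50.5% in the WT libraries. The log2 ratio was 0.41 lower in aldh3a1_KO, with no overlap (exact permutation p = 0.00433, adjusted p = 0.039). The groups nearly met, however, at aldh3a1_KO 1 with 49.4% and WT 3 with 49.5%. With 1 aldh3a1_KO library left out the adjusted p was 0.0715. With 5 libraries in each genotype, that is the smallest value possible when only 1 of the 9 pairs reaches the smallest p. Without WT 1 or WT 4 the adjusted p was 0.0857, and without aldh3a1_KO 1, 5 and 6 together it was 0.241. Reads of near-identical copies may be split unevenly by the quantification.

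No other pair passed the threshold. psmd11a made up 47.4 ± 3.41% of its pair in aldh3a1_KO and 43.6 ± 1.91% in WT (exact permutation p = 0.0584, adjusted p = 0.168; SD, n = 6 and 5), and psma2a 38.7 ± 3.18% in aldh3a1_KO and 41.6 ± 1.40% in WT (exact permutation p = 0.0931, adjusted p = 0.168). psma6a made up 69.8 ± 5.37% in aldh3a1_KO and 67.8 ± 2.77% in WT, and psmc1a 44.8 ± 6.77% in aldh3a1_KO and 46.8 ± 8.66% in WT, where WT 4 had 31.6%. psme4a took 9.57 ± 5.25% of PA200 transcripts in aldh3a1_KO and 8.01 ± 1.34% in WT (SD, n = 6 and 5). psmb10 was 7.71 ± 2.18% of the psmb10 and psmb7 pair in aldh3a1_KO and 6.99 ± 2.77% in WT (SD, n = 6 and 5; difference in log2 ratio 0.30, exact permutation p = 0.589, adjusted p = 0.663). psmb9a was 0 to 0.245% of its pair with psmb6 in aldh3a1_KO and 0.0656 to 0.267% in WT. For psme1 and psme2 the difference in log2 ratio was -0.53 (exact permutation p = 0.0866, adjusted p = 0.168).

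**Figure D5:**
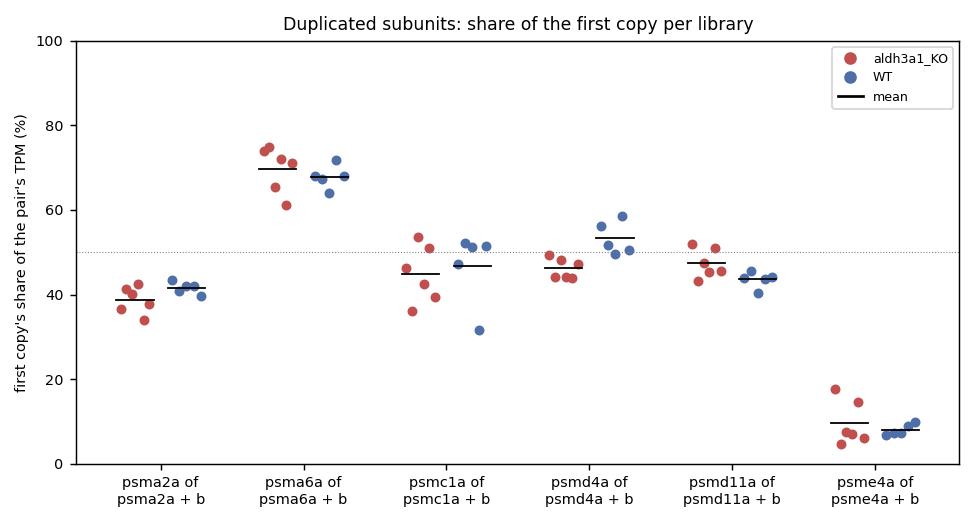
Share of the first copy in the summed TPM of 6 duplicated pairs (y axis, in percent) for each library, with means as bars. For psmd4a the aldh3a1_KO points, 43.8 to 49.4%, lie below the WT points, 49.5 to 58.6%, and in the other pairs the groups overlap.

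Genes that work with the proteasome were described from lists of the pathway, whose counts stand against 29.3% of all genes lower and 26.0% higher. Of 11 tested partners and assembly factors 4 fell, or 36.4%, which is near the share of all genes, and none rose, and the median was -0.05. The ubiquitin receptor adrm1 (Rpn13) averaged 17.9 ± 11.5 CPM in aldh3a1_KO and 55.3 ± 13.6 CPM in WT (SD, n = 6 and 5), a log2 fold change of -1.62 ± 0.46 (SE, edgeR adjusted p = 0.00908). pomp, the maturation factor of the core, had one of -0.89 ± 0.28 (SE, edgeR adjusted p = 0.0143), the ubiquitin ligase ube3c -0.61 ± 0.19 (SE, edgeR adjusted p = 0.0127), and the deubiquitinase usp14 -0.53 ± 0.19 (SE, edgeR adjusted p = 0.0281). The calls were lost without aldh3a1_KO 6 for pomp, without aldh3a1_KO 1 for ube3c and on leaving out any 1 of 6 libraries for usp14. The small lid subunit sem1 was at 0.10 ± 0.23 (SE, edgeR adjusted p = 0.736). Substrate delivery genes, the ubiquitin shuttles and the unfoldase p97 with its partners, had 6 of 14 lower, or 42.9%, and 1 higher. Of these, rad23aa was at -1.33, nploc4 at -1.14, rad23b at -0.85 and ubxn4 at 0.71. The p97 gene vcp, also among those lower at -1.04 ± 0.31 (SE, edgeR adjusted p = 0.0113), is counted again below with the genes linked to proteasome gene control. Its groups overlapped, since WT 5, at 218 CPM, lay below aldh3a1_KO 2 and 4, at 338 and 251 CPM. The other WT libraries had 387 to 488 CPM of vcp. The call for ubxn4 was lost on log2(TPM + 1), where the difference was 0.47 (limma adjusted p = 0.0758). Among 9 ubiquitin and activating-enzyme genes 2 fell, or 22.2%, the polyubiquitin genes ubc and ubb, at -1.15 ± 0.26 (SE, edgeR adjusted p = 0.00195) and -0.83 ± 0.27 (SE, edgeR adjusted p = 0.0179), and none rose. The call for ubb was lost without aldh3a1_KO 1, 5 or 6.

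Transcription factors and processing proteins linked to proteasome gene control had 6 of 19 lower, or 31.6% against 29.3% of all genes, and 3 higher, or 15.8% against 26.0%. nfe2l1b averaged 15.4 ± 2.87 CPM in aldh3a1_KO and 26.6 ± 5.22 CPM in WT (SD, n = 6 and 5), without overlap (log2 fold change -0.78 ± 0.18 (SE, edgeR adjusted p = 0.00257)). nfe2l1a was scarce and at -0.77 ± 0.31 (SE, edgeR adjusted p = 0.0492), a call lost in 9 of the 11 sets that leave out 1 library. mafk, a partner of Nfe2l1, was at 1.06 ± 0.30 (SE, edgeR adjusted p = 0.00866). The other maf genes of the list did not share a direction. maff rose, at 0.52 ± 0.21 (SE, edgeR adjusted p = 0.0463), and mafga fell, at -0.71 ± 0.25 (SE, edgeR adjusted p = 0.0272). mafgb did not pass, at -0.52 ± 0.32 (SE, edgeR adjusted p = 0.178). nrf1, a separate gene from nfe2l1a and nfe2l1b, was at 0.56 ± 0.15 (SE, edgeR adjusted p = 0.00606). The call for nrf1 was lost on log2(TPM + 1), where the difference was 0.30 (limma adjusted p = 0.298). The NF-Y subunit gene nfybb was at -3.93 ± 0.93 (SE, edgeR adjusted p = 0.00276), from 21 estimated counts over aldh3a1_KO, with 0 in 4 of the 6 libraries, and 480 over WT. Its fitted value was -6.27 without aldh3a1_KO 1. Antigen presentation genes, which use the peptides of the immunoproteasome, had 5 of 22 lower, or 22.7%, and 2 higher, or 9.09%, with mhc1zba at -1.98, mhc1zea at -1.22, canx at -1.08 and stat1b at 1.11.

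The lid shares its architecture with the COP9 signalosome and with eIF3, and these served for comparison, again beside 29.3% of all genes lower and 26.0% higher. Of 9 COP9 signalosome genes 4 fell, or 44.4%, and none rose, with a median of -0.48 and cops6 at -1.46 ± 0.22 (SE, edgeR adjusted p = 0.000101). Of 15 eIF3 genes 6 fell, or 40.0%, and 1 rose, or 6.67%, with a median of -0.39, eif3eb at -1.02 and eif3ja at 1.31. The CCT chaperonin, a ring complex of another kind, had 5 of 8 genes lower, or 62.5%, with a median of -0.62 and cct5 at -1.18. The core particle had 14 of 16 lower, or 87.5%, with a median of -0.90, and the regulatory particle 14 of 20, or 70.0%, with a median of -0.75. Differences between these lists were not tested.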

How the data were processed

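RNA from 6 aldh3a1_KO and 5 WT samples was sequenced. Per the submitters' processing notes the tools were Trim Galore 0.6.4 and kallisto 0.4.6, and the build was danRer11. One deposited file per sample gives estimated counts from kallisto, which are not whole numbers. The other gives TPM, to which the authors had already applied length and depth. Identifiers were matched to symbols through a RefSeq table on the assembly GRCz12tu (25812 of 30243 matched). It also gave gene order and the overlaps of gene spans, which are therefore those of GRCz12tu and not of danRer11. No sequences are shown.

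Estimated counts were rounded, filtered with filterByExpr (minimum 10 counts), scaled by TMM and tested by genotype with edgeR's robust quasi-likelihood F test (edgeR 4.0.16, R 4.3.3), two-sided, with Benjamini-Hochberg adjustment over 22182 genes. SEs come from the F statistic. Alternatives used limma 3.58.1, DESeq2 1.42.0 and other filters, scalings and sets of libraries. Pairs of genes were compared on log2 ratios of TPM + 0.5, and plots were drawn with matplotlib 3.10.9 in Python 3.11.15. The workflow was tested on simulated data.

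Members, lists and tests were chosen with earlier results of these data known. Library values are given, within each class, for the most abundant member, those with the largest rise and fall, and every member of a compared pair. From each pathway list up to 4 genes with the smallest adjusted p are named, and always nfe2l1a, nfe2l1b, pomp, adrm1, sem1, usp14 and psmf1. The other maf genes were added beside mafk after their values were seen, as was vcp, which stands on both lists. Genes and libraries named for a lost call, a flag or a count of 5 or fewer were chosen after their values were seen. The floor of 3 counts covers counting error only, while SDs and SEs include the spread among libraries. Totals of 9.22 to 19.97 M estimated counts limit the precision.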

Additional observations from a re-analysis of the deposited data

Results flagged for a closer look

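Over the 53 tested members and both genotypes, 106 groups were examined for a library far from the others by Dixon's ratio, on log2(CPM + 0.5). Chance alone flags about 1 in 20 groups, and 2 were flagged, both in WT. psmb10, the immunoproteasome beta2i gene, was at 5.4 CPM in WT 5, against 16.3 to 22.6 CPM in the other WT libraries, a value inside the range of aldh3a1_KO. psmb2, which encodes beta4, was at 117.0 CPM in WT 3, against 143 to 150.0 CPM in the other WT libraries, and still above every aldh3a1_KO library.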

How the results depend on the processing

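Across 23 alternatives, the number of members that fell stayed within 1.5 times of 33, between 22 and 36, against 21.6 to 36.0% of all genes lower. Of the 33, 22 passed in every one. None of the 33 changed sign. With 1 library left out, 23 to 35 fell and 2 to 4 rose, against 24.4 to 29.1% of all genes lower and 23.7 to 29.2% higher. Leaving out aldh3a1_KO 1, 5 or 6 alone, 23, 25 and 24 fell, against 25.1, 24.8 and 24.4% of all genes. The number that rose, 4 in the main analysis, was 2 with limma on log2(TPM + 1) and log2(TPM + 0.1), 2 with the replicate number as a block and 2 without aldh3a1_KO 1, 5 and 6. It was also 2 without aldh3a1_KO 6 or any of WT 1, 2, 3 and 5. psmb11b and psma6l passed in every alternative. Deviations of log2 CPM from the mean of each genotype correlated between same-numbered libraries at 0.149, 0.154, 0.0185, 0.0821 and 0.0109. Differently numbered libraries were not compared in this way, and the numbers were not taken to pair the libraries. With the replicate block 30 members fell, against 25.2% of all genes lower. In either direction 11125 genes changed with the block, against 12269 without it. The pairs of genes were not run with the block. Of all genes called, those higher in aldh3a1_KO made up 47.0% in the main analysis, 35.5% on log2(TPM + 1) and 53.9% with the median gene set to 0. Signs turned only for members that had not passed, for sem1 and for the log2 ratios of psme4a to psme4b and of psmb10 to psmb7, which had not passed either. On log2(TPM + 1) and log2(TPM + 0.1) the log2 fold changes were -0.23 and -0.26 for psmc6, -0.09 and -0.23 for psme4a, -0.16 and -0.18 for psmc3ip, and -0.19 and -0.19 for sem1. psme4a was at -0.09 with limma voom and psmc6 at -0.03 with the replicate block. psme1 and psme3ip1 were at 0.06 and 0.06 with DESeq2 size factors and with DESeq2's Wald test, 0.08 and 0.09 with upper-quartile factors, 0.02 and 0.02 without a filter, and 0.07 and 0.10 with the median gene set to 0. Without aldh3a1_KO 1, 5 and 6, psmd11a was at 0.11, psmd11b at 0.03, psme4a at -0.34, psmg1 at 0.04, psmg4 at 0.05, psme3ip1 at 0.22 and the psme4a to psme4b ratio at -0.18. With 1 library left out, the range was -0.20 to 0.38 for psmc6, -0.26 to 0.01 for psmd4b, -0.19 to 0.04 for psmd11a, -0.30 to 0.24 for psme1, -0.13 to 0.30 for psme4a, -0.26 to 0.01 for psme4b, -0.12 to 0.25 for psmc3ip, -0.09 to 0.18 for psme3ip1, -0.0022 to 0.31 for sem1 and -0.08 to 0.43 for the psmb10 to psmb7 ratio. The causes were not tested. Depth limits what can be said of psmb5, psmb8a, psmb9a, psmb11a, psmb12 and psmb13a, which did not pass the filter.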
